A study of Mus musculus with 4 samples.

Results

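Hair follicle bulge cells were examined for 35 genes that attach epithelial cells to their basement membrane: 8 integrin alpha chains, 6 integrin beta chains, 9 laminin chains, 4 basement membrane linkers (Nid1, Nid2, Hspg2 and Agrn), 3 hemidesmosome components (Dst, Plec and Cd151), 4 niche matrix genes (Postn, Tnc, Fn1 and Egfl6) and dystroglycan (Dag1). They were chosen by name and function, with earlier results of these data known. All 35 were found among the 55536 genes of the count table. Of these, 31 passed the filter on low counts, among 14259 genes tested. RNA was sequenced from 2 knockout and 2 control libraries. The knockout mice were Cdh5CreERT2; Alk1 flox/flox, in which a tamoxifen-inducible Cre under the endothelial promoter of Cdh5 deletes Alk1, the receptor encoded by Acvrl1, in endothelium. The controls were Cre-negative littermates, and the sources used here do not state their Alk1 alleles. Both groups were C57BL/6, received 100 µg of tamoxifen per g of body weight at postnatal day 17 by injection into the peritoneum, and were sampled at postnatal day 20. The question was how deletion in endothelium changes the transcripts of these epithelial stem cells, in which the deletion is not directed.

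Integrins are receptors made of 1 alpha and 1 beta chain that bind matrix outside the cell and the cytoskeleton within it. In hemidesmosomes, the anchors of basal keratinocytes, the Itga6 and Itgb4 chains bind a laminin that contains Lama3 and Lamb3, and plectin (Plec) and the epithelial form of dystonin (Dst) tie the receptor to keratin filaments. Other laminins, such as the one made of Lama5, Lamb1 and Lamc1, form the sheet of the basement membrane together with collagen IV, nidogens, perlecan (Hspg2) and agrin (Agrn). In mouse skin, bulge cells are commonly sorted by surface Itga6 and Cd34, and their matrix is known for periostin (Postn), tenascin C (Tnc), Egfl6 and nephronectin (Npnt).

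Total counts ran from 16326906 to 29130974 per library. Levels are given as CPM, which are counts scaled to a common library size after TMM normalization. The labelled cell type carried its markers: each of 13 bulge genes was detected in every library, and Krt15, a bulge keratin, measured 36017 and 34786 CPM in knockouts and 29088 and 34397 CPM in controls. Markers of suprabasal and upper follicle keratinocytes were present too. These 10 genes summed to 10258 and 5637 CPM in knockouts and 13774 and 5568 CPM in controls. The groups overlapped, with knockout 1 and control 1 above knockout 2 and control 2. The sum of 10 blood endothelial markers came to 6.11 and 18.5 CPM in knockouts and 15.1 and 7.21 CPM in controls, with Cldn5 at 0 counts in 3 of the 4 libraries. Acvrl1, the targeted gene, measured 17.9 and 23.1 CPM in knockouts and 21.6 and 24.3 CPM in controls, which overlap. Counts over the whole gene in cells outside the deleted population do not check the labels. Whether a library holds 1 mouse or several is not stated, so the p-values measure only the spread between these libraries.

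Several basement membrane genes measured lower in both knockout libraries than in both controls, while the hemidesmosome genes were mixed: Itga6, Itgb4, Lama3 and Dst overlapped between the groups, Plec was below both controls, and Lamb3 and Cd151 were above both. Lama5, Lamc1, Hspg2 and Agrn had log2 fold changes between -0.67 and -0.39, and Lama4 had -0.94. With the dependence on transcript length and GC content removed, Lamc1, Hspg2, Agrn and Plec had -0.25, -0.33, -0.22 and -0.09. The collagen receptor chain Itga1 was higher by 0.99 on the log2 scale, a fold of 1.98. No member passed an adjusted p of 0.05 in edgeR's quasi-likelihood test, with 0 of 31 called in either direction, against 0.00701% of all tested genes called higher and 0% called lower. The edgeR adjusted p of the 31 members ran from 0.43 to 1.0, so the words higher and lower describe measured levels and not calls. At an unadjusted p under 0.05, 10 members were lower (32.3%), against 5.94% of all tested genes. With the length and GC dependence removed, 3 were lower at that p, against 2.64%, and 2 were higher, against 5.98%. In the main test 1 member, Itga1, was higher (3.23%), against 4.8% of all tested genes. Without control 2, 1 member (Lama4) was lower and 1 (Itga1) higher at that p, and without knockout 2 none was higher.

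Itga1 was the only member higher at this p in the main test. Its promoter is shown beside those of a laminin chain and both heparan sulfate proteoglycans of the basement membrane that were lower. Each runs from 250 bases before to 50 bases after the RefSeq start of transcription, on GRCm38.p6, written 5′ to 3′ along the gene's own strand. Capitals mark the GC box GGGCGG and the element GGCGCC, which SMAD proteins of the BMP pathway are known to bind in other genes. Both were searched on both strands and with overlaps counted. The Itga1 window (chr13:115101915-115102214, minus strand), the Lama5 window (chr2:180225810-180226109, minus strand), the Agrn window (chr4:156197439-156197738, minus strand) and the Hspg2 window (chr4:137468553-137468852, plus strand) read:
Itga1: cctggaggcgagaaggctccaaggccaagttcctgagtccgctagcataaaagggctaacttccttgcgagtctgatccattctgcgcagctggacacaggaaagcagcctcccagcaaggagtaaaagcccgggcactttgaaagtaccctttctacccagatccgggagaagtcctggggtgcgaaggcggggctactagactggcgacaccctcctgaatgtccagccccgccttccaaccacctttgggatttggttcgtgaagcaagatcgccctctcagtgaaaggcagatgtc
Lama5: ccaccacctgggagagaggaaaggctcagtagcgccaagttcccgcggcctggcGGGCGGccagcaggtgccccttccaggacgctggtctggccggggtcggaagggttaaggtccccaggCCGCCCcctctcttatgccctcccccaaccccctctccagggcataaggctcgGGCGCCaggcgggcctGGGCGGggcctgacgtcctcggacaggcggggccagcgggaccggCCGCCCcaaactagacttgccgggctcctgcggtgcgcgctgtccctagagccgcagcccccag
Agrn: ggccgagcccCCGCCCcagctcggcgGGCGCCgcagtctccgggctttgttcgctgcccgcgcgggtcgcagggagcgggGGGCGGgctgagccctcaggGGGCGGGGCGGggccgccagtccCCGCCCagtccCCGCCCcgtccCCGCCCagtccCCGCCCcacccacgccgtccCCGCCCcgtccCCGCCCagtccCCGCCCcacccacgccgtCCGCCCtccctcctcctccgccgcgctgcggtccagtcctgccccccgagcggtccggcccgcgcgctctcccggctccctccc
Hspg2: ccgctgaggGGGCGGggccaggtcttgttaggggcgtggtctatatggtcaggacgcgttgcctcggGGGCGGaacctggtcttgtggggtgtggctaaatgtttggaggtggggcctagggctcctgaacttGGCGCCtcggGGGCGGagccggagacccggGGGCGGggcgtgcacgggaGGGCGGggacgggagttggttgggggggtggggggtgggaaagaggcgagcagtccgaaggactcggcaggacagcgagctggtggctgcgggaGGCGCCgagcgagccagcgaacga

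The Itga1 window held neither word. The GC box occurred 4 times in the Lama5 window, 12 times in the Agrn window and 5 times in the Hspg2 window, and GGCGCC occurred 1, 1 and 2 times in them. These 4 windows do not stand for all members. The windows of Itgav, Itga2 and Itga5, also lower in both knockouts, held 1, 1 and 2 GC boxes and no GGCGCC. Those of Itga3 (3 and 1) and Tnc (1 and 1), lower too, held GC boxes and no GGCGCC. Among members above both controls, Itgb5 held 3 GC boxes and the windows of Cd151 2 and 0. The windows of Lamb3 and Itga8, also above both controls, held 0, and none of these held GGCGCC. Another Agrn window held 2 GC boxes and no GGCGCC. Windows of Itgb1, Dag1, Lamb1 and Egfl6, whose levels overlapped between the groups, held GGCGCC too. GGCGCC thus marked neither all of the lower members nor only those. The RefSeq table held a promoter for 25 of the 35 members, with 34 windows among them, since some genes have several. The GC box was in 21 of the 34 windows (61.8%), against 35.7% of the 32851 windows of the table, and GGCGCC was in 7 (20.6%), against 11.9%. TATAAA was in 3 of the 34 windows, against 13.6% of all windows, and the AP-1 word TGANTCA was in 2, against 7.81%. A match of letters is a description of these windows and does not show a bound site.

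**Figure D1:**
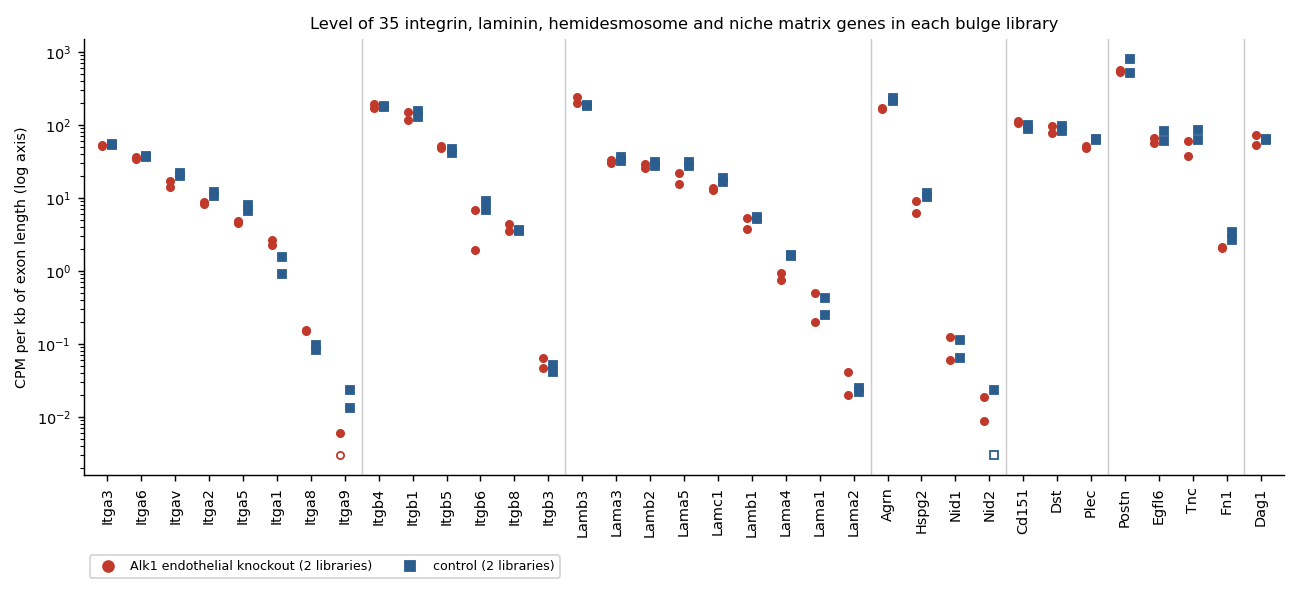
Level of each of the 35 genes in each library, as CPM per kb of exon length on a log axis, grouped by role. Circles are knockout and squares control libraries, and open symbols at the lower edge mark 0 counts. Levels within a gene mostly lie close together, while genes of 1 family span from 182 CPM per kb (Itgb4) to 0.051 CPM per kb (Itgb3).

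Compared per length, the integrin alpha chains of bulge cells ran in a fixed order in all 4 libraries: Itga3, Itga6, Itgav, Itga2, Itga5 and Itga1. Itga3, which pairs with Itgb1 as a laminin receptor, averaged 53.1 CPM per kb over the 4 libraries. Itga6 averaged 36.2, Itgav 18.3, Itga2 9.98, Itga5 5.99 and Itga1 1.83 CPM per kb. No 2 neighbours among these 6 genes overlapped in their levels per kb. Itga8, the nephronectin receptor chain known from the arrector pili muscle of mouse skin, had 25 and 23 counts in knockouts and 12 and 18 in controls. Itga9, a tenascin receptor chain, had 1 and 0 counts in knockouts and 3 and 3 in controls, and a count of 0 in knockout 2 allows up to 0.144 CPM. The bulge fraction thus held almost no transcript of these 2 chains at this depth.

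The laminin-binding alpha chains hardly differed between groups. Itga3 (chromosome 11, 95044474 to 95076801, GRCm38) measured 303 and 293 CPM in knockouts and 306 and 311 CPM in controls, a log2 fold change of -0.05 ± 0.11 (SE; 95% interval -0.33 to 0.23). Itga6 (chromosome 2, 71745616 to 71858416) measured 334 and 305 CPM in knockouts and 344 and 326 CPM in controls (log2 fold change -0.07 ± 0.12, interval -0.36 to 0.23). Itga3 was marginally lower in both knockouts, and Itga6 overlapped between the groups.

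The chains that bind fibronectin, vitronectin and collagens showed larger differences. Itgav, the shared alpha chain of receptors that activate latent TGF-beta (chromosome 2, 83724397 to 83806916), measured 186 and 152 CPM in knockouts, against 215 and 233 CPM in controls. Its log2 fold change was -0.41 ± 0.14 (edgeR adjusted p = 0.43). Itga5, the fibronectin receptor chain (chromosome 15, 103344286 to 103366763), measured 24.0 and 22.5 CPM in knockouts and 32.3 and 39.3 CPM in controls. This was a log2 fold change of -0.62 ± 0.16 (edgeR adjusted p = 0.43). In both genes the groups did not overlap. Without knockout 2, Itgav was at -0.27.

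The 2 collagen receptor chains Itga2 and Itga1 lie next to each other on the minus strand of chromosome 13, from 114833081 to 114932100 and from 114953096 to 115101964, with 20995 bases between them. They differed in opposite directions. Itga2 measured 59.1 and 63.4 CPM in knockouts and 75.5 and 86.6 CPM in controls (log2 fold change -0.41 ± 0.13, edgeR adjusted p = 0.43). Itga1 measured 41.8 and 48.8 CPM in knockouts, against 29.3 and 16.7 CPM in controls. Its log2 fold change was 0.99 ± 0.27, with a 95% interval from 0.33 to 1.65 (edgeR adjusted p = 0.43). Both knockouts lay above both controls, and control 2 was far below control 1. The log2 ratio of Itga1 to Itga2 per length was -1.88 and -1.76 in knockouts and -2.75 and -3.76 in controls. That ratio was formed after the values were seen and was not tested. Without control 2 the log2 fold change of Itga1 was 0.65, and without control 1 it was 1.44. Itga1 shares 685 exon bases, 3.68% of its exon length, with another annotated gene, Gm49395, on the same strand. Gm49395 had at most 0.42 CPM in a library. The counts cannot part reads on the shared bases.

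Among the beta chains, Itgb4 and Itgb1 made up most of the family's transcripts. Per length, Itgb4, the hemidesmosome chain, held 44.7% and 52.9% of the sum over the 6 beta chains in knockouts and 48.8% and 47.0% in controls. Itgb1, the partner of most alpha chains, held 39.0% and 32.1% in knockouts and 35.3% and 39.2% in controls. Itgb3 was close to the limit of detection, with 6 and 8 counts in knockouts and 4 and 9 in controls. Itgb6 and Itgb8, which pair with Itgav, overlapped in their levels per kb, so their order cannot be read.

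The beta chains did not part the groups as a family: only Itgb5 did not overlap. Itgb4 (chromosome 11, 115974709 to 116008412) measured 1202 and 1346 CPM in knockouts and 1248 and 1299 CPM in controls (log2 fold change 0.00 ± 0.13, 95% interval -0.31 to 0.31). Itgb1 (chromosome 8, 128685654 to 128733200) measured 611 and 475 CPM in knockouts and 525 and 631 CPM in controls, with a log2 fold change of -0.09 ± 0.17. For Itgb5, a vitronectin receptor chain, the values were 185 and 170 CPM in knockouts and 169 and 149 CPM in controls (0.16 ± 0.13, edgeR adjusted p = 0.66). Itgb6 stood out for 1 library. It measured 49.2 and 13.7 CPM in knockouts and 48.4 and 64.2 CPM in controls, so knockout 2 was the only library far from the others. Its log2 fold change of -0.84 ± 0.53 was -2.04 without knockout 1 and -0.20 without knockout 2.

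**Figure D2:**
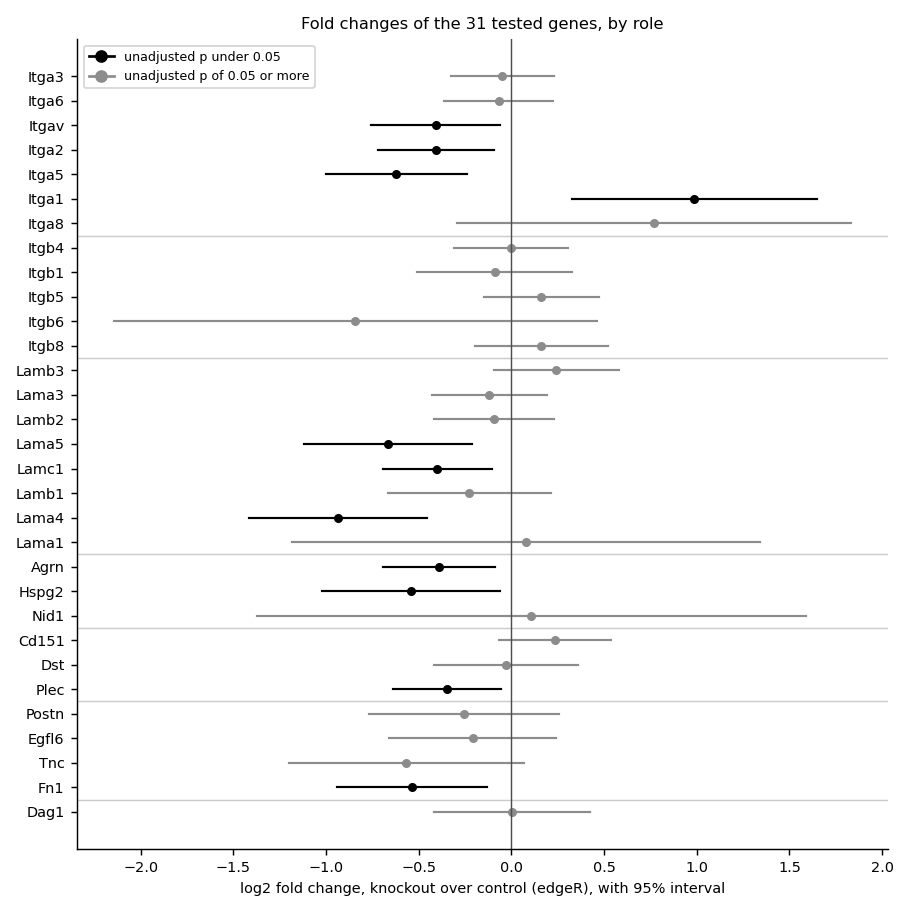
Log2 fold change of knockout over control for the 31 tested genes, grouped by role, with 95% intervals from edgeR's quasi-likelihood fit on 2 libraries per group. Black marks an unadjusted p under 0.05, and grey the rest. Itga3, Itga6, Itgb4, Lama3 and Dst lie near 0, while Lama5, Lamc1, Lama4, Agrn and Hspg2 lie below it.

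Laminin transcripts were led by the hemidesmosome laminin. Lamb3 averaged 203 CPM per kb and Lama3 33.0 CPM per kb. Lamb2 (28.5), Lama5 (24.1) and Lamc1 (15.4) followed, and their ranges overlapped between neighbours. Lamb1 averaged 4.89 CPM per kb, Lama4 1.23 and Lama1 0.342, and Lama2, the chain of muscle and nerve laminin, had 7 and 14 counts in knockouts and 6 and 12 in controls.

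In the hemidesmosome laminin, Lamb3 measured higher in both knockouts, while Lama3 overlapped between the groups. Lama3 (chromosome 18, 12333819 to 12583013) measured 326 and 353 CPM in knockouts and 348 and 390 CPM in controls (log2 fold change -0.12 ± 0.13). Lamb3 (chromosome 1, 193207699 to 193343878) measured 1321 and 1588 CPM in knockouts, against 1242 and 1217 CPM in controls, and did not overlap. Its log2 fold change was 0.24 ± 0.14, with a 95% interval from -0.10 to 0.58 (edgeR adjusted p = 0.55). With the length and GC dependence removed, Lamb3 was at 0.36 and Lama3 at 0.07.

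Of the chains of other laminins, Lama5 and Lamc1 measured lower in both knockouts, while Lamb1 and Lamb2 overlapped between the groups. Lama5 (chromosome 2, 180176373 to 180225859) is the main alpha chain of the laminin sheet under many epithelia. It measured 177 and 248 CPM in knockouts and 316 and 357 CPM in controls, a log2 fold change of -0.67 ± 0.19 (95% interval -1.12 to -0.21, edgeR adjusted p = 0.43). Lamc1 (chromosome 1, 153218922 to 153332786), the most widely shared gamma chain, measured 108 and 113 CPM in knockouts and 137 and 154 CPM in controls (-0.40 ± 0.12, edgeR adjusted p = 0.43). Lamb1, a beta chain that joins them, measured 37.5 and 51.9 CPM in knockouts and 50.4 and 54.1 CPM in controls (-0.23 ± 0.18). Lamb2, another beta chain, gave -0.09 ± 0.13.

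Lama4 (chromosome 10, 38965515 to 39110188), a laminin chain best known from blood vessels, had the smallest p of the members. It measured 11.4 and 9.0 CPM in knockouts, against 19.4 and 19.7 CPM in controls. The log2 fold change was -0.94 ± 0.20, with a 95% interval from -1.42 to -0.46 (edgeR adjusted p = 0.43). The summed endothelial markers had no such order, with knockout 2 highest and knockout 1 lowest. The sum of 10 pericyte and smooth muscle markers was lower in both knockouts, at 515 and 553 CPM, than in controls, at 631 and 648 CPM. Of the 5 markers tested, 2 were below both controls in both knockouts, and 3 overlapped between the groups. Cspg4, which made up most of it, had 483 and 527 CPM in knockouts and 578 and 627 CPM in controls, while Kcnj8 was at 0 in all 4 libraries and Rgs5 had at most 3 counts in a library. The dermal fibroblast sum, given with Fn1, was lower in both knockouts too. The part of these cells in the Lama4 values was not tested. In bulk RNA, fewer cells of a type and less RNA per cell cannot be told apart.

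Ratios between laminin chains within a library parted the groups. The log2 ratio of Lama5 to Lama3 per length was -0.97 and -0.59 in knockouts and -0.22 and -0.21 in controls. The ratio of Lamb1 to Lamb3 was -5.72 and -5.52 in knockouts and -5.21 and -5.08 in controls. Chains of the same laminin gave ratios that parted the groups too: Lama3 to Lamb3 was -2.72 and -2.87 in knockouts and -2.54 and -2.34 in controls, and Lama5 to Lamc1 was 0.26 and 0.67 in knockouts and 0.75 and 0.76 in controls. Each of these 4 ratios was lower in both knockouts than in both controls, so these ratios alone do not set 1 kind of laminin apart. The ratios of Itga6 to Itgb4 and of Itga3 to Itgb1 overlapped between the groups. Ratios within a library do not depend on the scaling between libraries, and these pairs were formed after the values were seen, without a test. They can depend on transcript length, with which fold changes in these libraries fell. In each of the 4 laminin pairs the first chain had the greater exon length. The part of length in these ratios was not tested.

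The linkers of the basement membrane were led by agrin. Agrn (chromosome 4, 156165290 to 156197488), a heparan sulfate proteoglycan that binds laminins and dystroglycan, measured 1593 and 1555 CPM in knockouts and 1965 and 2163 CPM in controls. Its log2 fold change was -0.39 ± 0.12 (edgeR adjusted p = 0.43). Hspg2 (chromosome 4, 137468769 to 137570630), which encodes perlecan, measured 87.8 and 129 CPM in knockouts and 150 and 166 CPM in controls (-0.54 ± 0.20, edgeR adjusted p = 0.43). Both genes were lower in each knockout than in each control. Hspg2 was at -0.29 without knockout 1 and at -0.85 without knockout 2. The nidogens, which bridge laminin and collagen IV, were nearly absent: Nid1 had 9 and 18 counts in knockouts and 13 and 13 in controls, and Nid2 had 1 and 2 in knockouts and 2 and 0 in controls. Dag1 (chromosome 9, 108204634 to 108263958), the receptor for agrin, perlecan and laminins, measured 338 and 463 CPM in knockouts and 395 and 405 CPM in controls. The knockouts lay on either side of both controls (0.00 ± 0.17, 95% interval -0.42 to 0.42).

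The cytoplasmic plaque of the hemidesmosome was mixed. Dst (chromosome 1, 33908225 to 34308661) measured 3225 and 3995 CPM in knockouts and 3969 and 3389 CPM in controls (log2 fold change -0.03 ± 0.16), and its groups overlapped. Plec (chromosome 15, 76170974 to 76232574) measured 868 and 933 CPM in knockouts, against 1151 and 1139 CPM in controls (-0.35 ± 0.12, edgeR adjusted p = 0.43). Cd151 (chromosome 7, 141467392 to 141471473), a tetraspanin bound to laminin-binding integrins, measured 309 and 294 CPM in knockouts and 241 and 271 CPM in controls. It was higher in both knockouts, by 0.23 ± 0.13 (edgeR adjusted p = 0.52). With the length and GC dependence removed, Plec was at -0.09, Dst at 0.27 and Cd151 at 0.23. Counts cover whole genes, so the epithelial and muscle or nerve forms of Dst and Plec are summed, and 205 bases of Plec exons are shared with Parp10 on the same strand. The log2 ratio of Dst to Plec per length was 0.71 and 0.91 in knockouts and 0.60 and 0.39 in controls, a pair formed after the values were seen.

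Among the niche matrix genes, Postn was the most abundant of all 35, at 608 CPM per kb. Postn (chromosome 3, 54361109 to 54391037) measured 4654 and 5000 CPM in knockouts and 4563 and 6949 CPM in controls, where control 2 alone was high (log2 fold change -0.25 ± 0.21). Tnc (chromosome 4, 63959785 to 64047015) measured 473 and 294 CPM in knockouts and 481 and 654 CPM in controls (-0.57 ± 0.26, edgeR adjusted p = 0.49). Its groups did not overlap, but knockout 1 lay close under control 1. Tnc was at -0.95 without knockout 1, -0.26 without knockout 2 and -0.30 without control 2. Egfl6 (chromosome X, 166523007 to 166585720), a secreted ligand of Itgav receptors that mouse upper bulge cells make, measured 153 and 181 CPM in knockouts and 163 and 223 CPM in controls (-0.21 ± 0.18). Fn1 (chromosome 1, 71585520 to 71653200), fibronectin, measured 24.9 and 24.1 CPM in knockouts and 31.1 and 39.9 CPM in controls (-0.54 ± 0.17, edgeR adjusted p = 0.43). Without control 2, Fn1 was at -0.32. The sum of 10 dermal fibroblast markers was 137 and 141 CPM in knockouts and 185 and 234 CPM in controls, and Col1a1 and Col1a2 made up nearly all of it. Of the 6 markers tested, these 2 were below both controls in both knockouts, and the other 4 overlapped between the groups. Lum had 1 and 1 counts in knockouts and 0 and 0 in controls, and Dpt had 0 and 4 counts in knockouts and 0 and 1 in controls. The part of these cells in the Fn1 values was not tested.

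**Figure D3:**
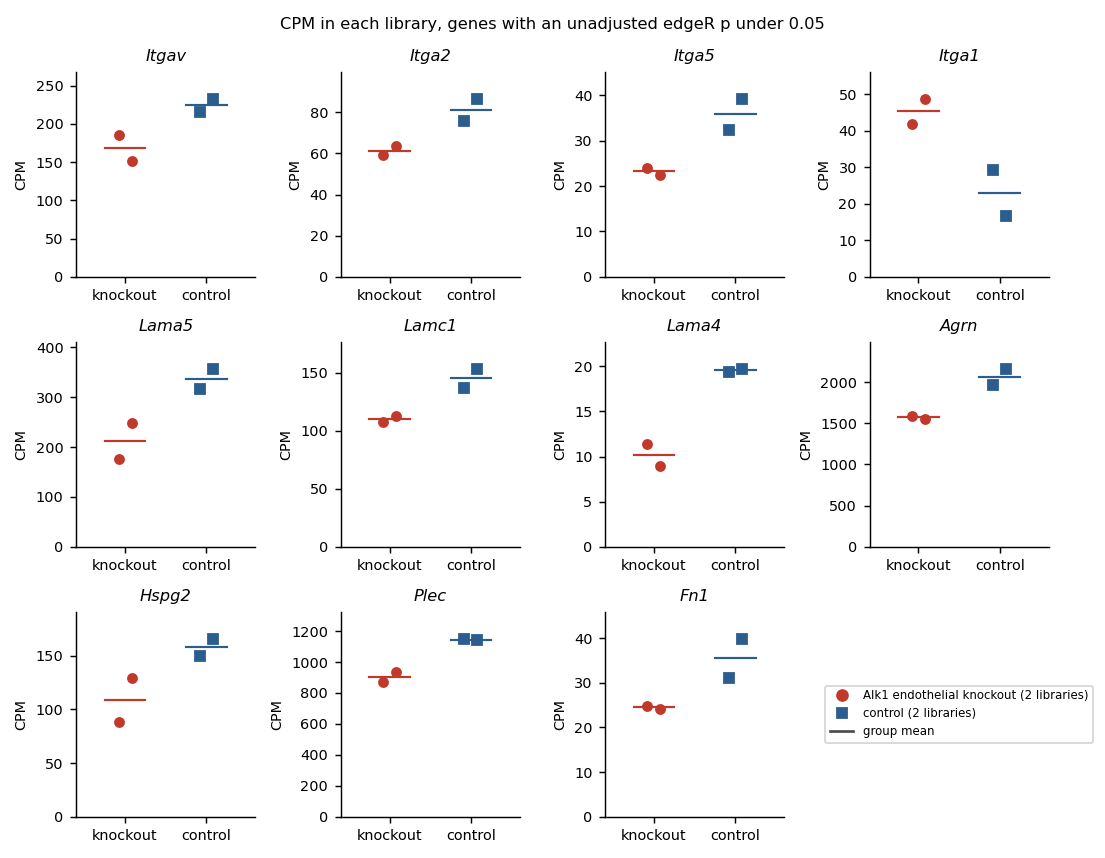
CPM in each library for the 11 genes with an unadjusted edgeR p under 0.05, each panel with an axis from 0. Circles are knockout and squares control libraries, and lines are group means (n = 2 each). Itga1 is the only gene with both knockouts above both controls, and the other 10 have both knockouts below.

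Over the list, 21 of 31 log2 fold changes were below 0 (67.7%), against 52.5% of all tested genes. The median of the members was -0.12, against -0.02 for all tested genes. With 1 library left out it lay between -0.26 (without knockout 2) and -0.087 (without knockout 1). Both knockouts lay below both controls for 12 members (38.7%), against 23.6% of all tested genes, and above both controls for 5 (16.1%), against 21.3%. The members' levels in each library, taken as deviations from each gene's mean, had medians of -0.16 and -0.01 in knockouts and 0.07 and 0.17 in controls on the log2 scale. Control 2 was thus highest, and knockout 2 lay closer to control 1 than to knockout 1.

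These are long transcripts, and fold changes in these libraries moved with transcript length. The median exon length of the tested members was 8272 bases, against 4180 for all tested genes, and 12 of the 31 were in the longest of 10 length classes, where the median log2 fold change of all genes was -0.19. Set against the median of genes in the same length class, 18 of 31 members were lower, with a median difference of -0.03. After each library's dependence on exon length and GC content was removed, 16 of 31 members were below 0. The share of all tested genes below 0 was not counted in that fit. There the median was -0.056 for the members and 0.042 for all tested genes. At an unadjusted p under 0.05, 3 members (Lama4 at -0.73, Itga5 at -0.56 and Lama5 at -0.48) were then lower, against 2.64% of all tested genes. Itga1 (1.23) and Lamb3 (0.36) were higher, against 5.98%. The other 7 were no longer under that p, at log2 fold changes of -0.22 (Agrn), -0.33 (Hspg2), -0.25 (Lamc1), -0.22 (Itgav), -0.28 (Itga2), -0.09 (Plec) and -0.34 (Fn1).

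**Figure D4:**
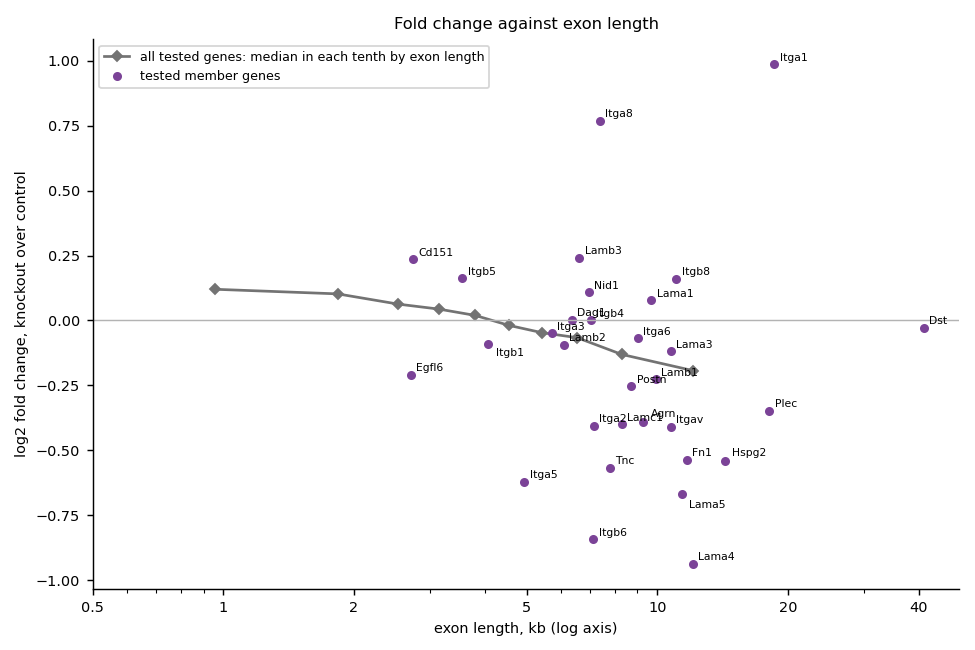
Log2 fold change of each tested member (purple) against its exon length in kb, with the median of all tested genes in each of 10 classes by exon length (grey, at the class's median length). The grey line falls from 0.12 for the shortest to -0.19 for the longest genes, and Itga1, Itga8, Itgb6, Lama4, Itga5 and Lama5 differ most from the median of their class.

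With other handling of the counts, more calls were made. In edgeR without a count filter, 5 members were called lower, against 1.11% of 24037 genes: Lama5 (adjusted p = 0.0018), Lama4 (0.0061), Hspg2 (0.021), Tnc (0.021) and Itga5 (0.033). Itga1 was called higher (adjusted p = 1.1e-05), against 0.678% of genes. The prior degrees of freedom, which weigh the common spread against a gene's own, had an infinite median in that fit and a median of 4.17 in the main test. DESeq2 called 0 members, against 0.236% of genes called higher and 0.48% called lower, and its smallest adjusted p among members were those of Lama4 (0.054) and Itga1 (0.062).

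**Figure D5:**
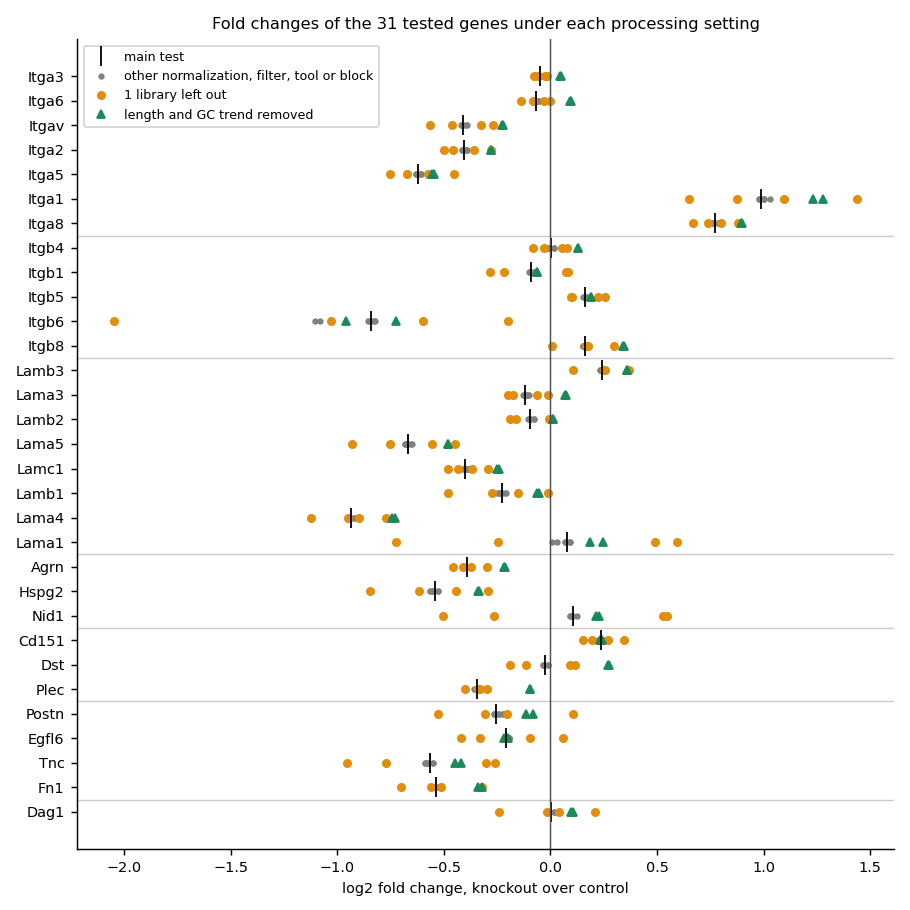
Log2 fold change of each tested member under each of the 14 settings: the main test (bar), other normalizations, filters, tools or a replicate block (grey dots), 1 library left out (orange) and the length and GC trend removed (green triangles). Lama4, Lama5, Itga5 and Itga1 keep their side of 0 under each setting, while Dst, Lama1, Nid1 and Postn cross it.

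Other genes of the pathway, from lists set by function with earlier results of these data known, were read beside the members. They are therefore not independent of the data. For these lists, the counts at an unadjusted p were not repeated with the length and GC trend removed. Of 18 tested basement membrane and anchoring genes outside the 35, 9 were lower (50%) and 1 higher (5.56%) at an unadjusted p under 0.05, against 5.94% and 4.8% of all tested genes. Of the 18, 16 were below 0 (88.9%), against 52.5% of all tested genes, and 5 were in the longest length class. Their median log2 fold change was -0.35, and -0.29 relative to the median of each gene's length class. None passed the edgeR threshold over all genes. Frem2, part of a complex that anchors epithelium to the dermis, measured 91.0 and 84.3 CPM in knockouts and 159 and 241 CPM in controls (-1.19 ± 0.21, edgeR adjusted p = 0.43). Npnt, nephronectin, measured 421 and 312 CPM in knockouts and 598 and 959 CPM in controls (-1.09 ± 0.26, adjusted p = 0.43 with edgeR). Named after their values were seen, Col4a1 gave -0.57 ± 0.15, Col4a2 -0.39 ± 0.12, Col4a5 -0.50 ± 0.14 and the anchoring fibril collagen Col7a1 -0.55 ± 0.15. Col17a1, the transmembrane collagen of hemidesmosomes, gave -0.07 ± 0.13 at 7820 and 8588 CPM in knockouts and 8224 and 8942 CPM in controls. The 1 higher gene, also named after its values were seen, was Ntn4, a netrin that binds laminin gamma chains, at 18.3 and 33.0 CPM in knockouts and 13.7 and 11.7 CPM in controls (1.02 ± 0.30, edgeR adjusted p = 0.43).

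Integrin adaptors and focal adhesion genes, which carry force from beta chains to actin, gave 8 of 27 tested genes lower (29.6%) and 0 higher at an unadjusted p under 0.05, against 5.94% and 4.8% of all tested genes. Their median was -0.20, and -0.12 relative to each gene's length class, with 7 of the 27 in the longest class. Tns1 and Tns3, tensins that bind beta tails, gave -0.52 ± 0.13 and -0.49 ± 0.13 (edgeR adjusted p = 0.43 for both). Of 11 hemidesmosome neighbours and keratin linkers, 1 was lower (9.09%) and 2 higher (18.2%) at that p, against 5.94% and 4.8% of all tested genes, with a median of 0.02. Macf1, a cytoskeletal linker, gave -0.49 ± 0.13. Krt14, the basal keratin anchored at hemidesmosomes, measured 6879 and 5520 CPM in knockouts and 4594 and 3703 CPM in controls (0.58 ± 0.17, edgeR adjusted p = 0.43), while its partner Krt5, named after its values were seen, gave 0.02 ± 0.16. Integrin chains outside the 35 were rare, at 15.7 to 17.5 CPM for the sum of 14 chains in a library. Of 9 tested, 0 had an unadjusted p under 0.05 in the main test, and the smallest were those of the leukocyte chains Itgal (1.24 ± 0.51, edgeR adjusted p = 0.46) and Itgb7 (0.80 ± 0.39, edgeR adjusted p = 0.50).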

How the data were processed

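RNA from bulge cells of 4 mouse skin samples was measured by polyA-selected, directional RNA sequencing. The authors deposited raw counts per gene. Per the submitters' processing notes, Trim Galore 0.6.0, cutadapt, FastQC, STAR 2.7.0e and DESeq2 1.26.0 were used with GRCm38 (mm10). How reads were assigned to genes, with which strand setting and annotation, is not stated in the labels. Symbols, positions and exon lengths come from GENCODE M21 on GRCm38, and promoters from RefSeq on GRCm38.p6. Exons of 13 members share 1.11% to 8.45% of their length with another annotated gene, so those counts are less certain.

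In R 4.3.3, genes passing edgeR 4.0.16's filterByExpr were normalized by TMM and tested across all 14259 genes with the quasi-likelihood test (robust, groups only), and adjusted p-values (Benjamini-Hochberg) under 0.05 were called. Standard errors were taken from the fold change and its F value. The code was tested on simulated data. Also tried were upper-quartile and RLE normalization, no filter, at least 50 counts in 2 libraries, DESeq2 1.42.0, limma-voom 3.58.1, a replicate block, each library left out, and fits with the length and GC dependence taken out by splines (4 degrees of freedom per term). Members given in every library were the 3 of highest mean CPM in each role and any with an unadjusted p under 0.05. From the other lists, genes past the threshold or else the 2 of smallest p without overlap of groups were named. The members and lists were chosen with earlier results of these data known. One gene of the other lists is counted but not reported here. Counts of the knockouts (chi-square over its degrees of freedom 45.7) and of the controls (34.5) differed by more than sampling noise. Limits from 0 counts (3 counts) cover counting error only.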

Additional observations from a re-analysis of the deposited data

How the results depend on the processing

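Of 401 comparisons of a member's log2 fold change with the main test, over 13 other settings, 361 kept direction and side of the threshold, 6 passed the threshold only without a count filter, and 34 turned sign, in 12 members. The other 19 members kept their sign under each of the 13 settings. Called genes (higher, lower) numbered 1 and 0 in the main edgeR test, 163 and 267 without a filter, 27 and 55 with DESeq2, 25 and 81 with the replicate block, 7 and 17 with the block and the trend removed, 2 and 0 with the trend removed, and between 1 and 39 higher and 0 and 26 lower with 1 library left out. Without a filter 1 member was called higher and 5 lower, and under the other settings 0 were called. The replicate block changed no member's call. The members' median was -0.12 in the main test, -0.22 with at least 50 counts in 2 libraries, which drops Itga8 and Nid1, and between -0.26 (without knockout 2) and -0.087 (without knockout 1) with 1 library left out. Members lower at an unadjusted p under 0.05 numbered 10 in the main test, 3 with the trend removed, 3 with the block and the trend removed, and 1 to 10 with 1 library left out, the 1 (Lama4) being without control 2. Those higher numbered 1 in the main test, 2 with the trend removed, and 0 (without knockout 2) to 2 (without knockout 1). These counts at unadjusted p were added after seeing the data.

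Signs turned as follows. With the trend removed, values were 0.27 (Dst), 0.048 (Itga3), 0.095 (Itga6), 0.066 (Lama3) and 0.012 (Lamb2), and with the block as well 0.27, 0.046, 0.092, 0.072 and 0.012. Dag1 and Itgb4, at 0.00 in the main test, gave -0.0071 and -0.0096 with the stricter filter, -0.016 and -0.0019 with voom, -0.0070 and -0.0080 without a filter, -0.016 and -0.0019 with the block, and -0.00043 and -0.0019 with upper-quartile normalization. With 1 library left out, the lowest and highest values were -0.24 and 0.21 (Dag1), -0.19 and 0.12 (Dst), -0.42 and 0.061 (Egfl6), -0.29 and 0.081 (Itgb1), -0.083 and 0.077 (Itgb4), -0.73 and 0.60 (Lama1), -0.50 and 0.54 (Nid1) and -0.53 and 0.10 (Postn). None of these members was called, and the cause was not tested. Same-numbered libraries deviated together weakly (Pearson r = 0.11 across genes, which are not replicates), with only 2 pairs and no pairing in the labels. Nid2, Itga9, Itgb3 and Lama2 had too few counts for the main test.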
